A study of Petunia x hybrida with 32 samples.

Results

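Leaves of petunia taken 24 h after the start of salt treatment were compared with leaves taken just before treatment. The comparison was set by its groups and not by any measured value, and it holds 11 of the 32 sequenced samples, 6 from control leaves at 0 h and 5 from salt-treated leaves at 24 h. All plants were Petunia x hybrida of the genotype Mitchell Diploid, grown in nutrient solution in a growth chamber, and the treated plants received 150 mM NaCl while the control plants received none. The control leaves at 0 h came from plants of the control group. Each biological replicate was a pool of recently expanded leaves from 3 plants, with 3 replicates per group, and the samples beyond these are repeat libraries of the same cDNA made with differently purified index primers. A leaf taken at 24 h under salt differs from a control leaf at 0 h in salt, in 1 day of growth and in the plants used. It was also taken after earlier leaf sampling in the experiment. The study names daily rhythm and damage from sampling as likely sources of change in control leaves. These differences cannot be told apart in this comparison alone. The 6 samples of control leaves taken at 24 h are therefore set beside it for many of the transcripts named.

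Salt reaches a leaf first as a shortage of water and later as an excess of sodium and chloride. Plants are known to answer with abscisic acid signalling through SnRK kinases and PP2C phosphatases, with compatible solutes such as proline, inositol, raffinose sugars and sucrose, with changes in water channels and ion exchangers, and with slower growth. Carbon and nitrogen stores are mobilised as photosynthesis declines, with asparagine as a nitrogen store and amino acid breakdown as a source of carbon.

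Expression was measured as RPKM, read counts scaled to transcript length and to the mapped reads of the library, for 4767 assembled transcripts of 3450 Trinity components, of which 4658 passed a filter of 1 RPKM in 3 replicates and 1433 carried a description. Trinity groups isoforms that share sequence into a component, so values of isoforms of 1 component share reads. Values in this text are RPKM per replicate in the order 1 to 3, ± after a mean RPKM is the SD of 3 replicates, and log2 changes are fitted differences of log2(RPKM + 1) with limma's standard error and an adjusted p over all 4658 transcripts. RPKM keep no depth, and the read totals that the study lists per library were not used here. The median RPKM of a replicate was 3.74 to 4.27 in control 0 h and 3.36 to 3.54 in salt 24 h, and the median log2 change of all tested transcripts was -0.24. Setting all replicates to 1 median moved that median by 0.15. Replicate 3 of control 0 h stood apart: it was the highest of its group for 73.8% of the transcripts called higher under salt, against 41.8% of all tested, and the lowest for 58.2% of those called lower, against 29.4% of all tested. It thus lay nearer to the salt leaves than its group did.

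A transcript was called at an adjusted p of at most 0.001 and a log2 change of at least 1 in size, and 1227 of 4658 transcripts (26.3%) were called, in 1005 components. Of these, 638 (13.7%) were higher in salt 24 h and 589 (12.6%) lower, so 52.0% of calls were higher; with replicates set to 1 median, 798 were higher and 423 lower, or 65.4% higher. The median log2 change was 2.01 among those higher and -1.70 among those lower. Large changes were mostly increases: 28 transcripts called higher had a log2 change of 4 or more, against 4 called lower. On the scale of log2(RPKM + 1) a fall is limited by the level in control 0 h, while a rise has no such limit. The part of this limit in the difference was not tested. At an adjusted p of 0.05 alone, 2912 transcripts (62.5%) passed, of which 1283 (27.5% of all tested) rose and 1629 (35%) fell, and the counts of gene lists below are at this threshold and are read against these shares. The count of calls rested on all replicates. It was 809, 721 and 1124 without control 0 h replicates 1, 2 and 3, and 821, 791 and 786 without salt 24 h replicates 1, 2 and 3, whereas the count at an adjusted p of 0.05 stayed between 2546 and 2733.

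The 12 described transcripts with the largest rise and the 12 with the largest fall were taken among called transcripts whose replicates did not overlap, so the gap between the groups in the plot of these 24 is part of their choice. Of all tested transcripts, 30.1% had all salt replicates above all control 0 h replicates and 38.8% all below. Control leaves at 24 h entered the choice only through the estimate of the spread that all groups share. They had a mean between those of the other groups for 22 of the 24. As the 24 are the extremes of salt 24 h against control 0 h, this count is in part a result of the choice. The names below are those of the deposited descriptions, which the authors transferred from similar proteins of other plants.

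**Figure D1:**
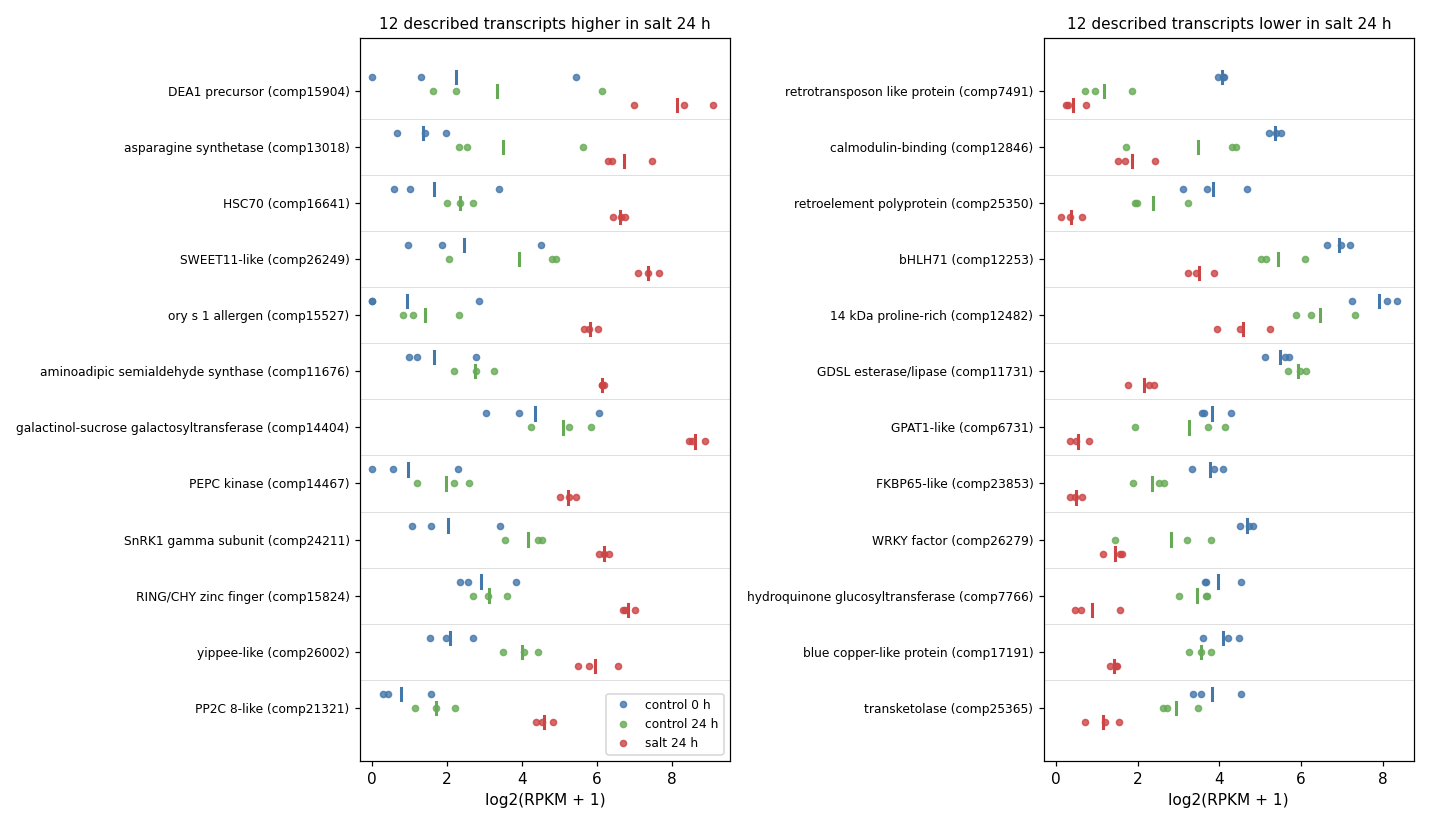
Levels of the 12 described transcripts with the largest rise (left) and the 12 with the largest fall (right) at 24 h of salt, as log2(RPKM + 1) per replicate. Points are the 3 replicates of control 0 h (blue), control 24 h (green) and salt 24 h (red), and short bars their means. Control 0 h replicate 3 is the rightmost blue point for the DEA1 precursor, at 42.4 RPKM, and its distance from the other replicates is seen in several rows on the left.

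Enzymes that make compatible solutes and a nitrogen store were among the largest increases. Asparagine synthetase (comp13018_c0_seq1), which forms the nitrogen-rich amide asparagine, was at 1.70, 0.605 and 2.99 RPKM in control 0 h and 177, 84.3 and 77.9 in salt 24 h. Its log2 change was 5.36 ± 0.69 (adjusted p = 1.53e-05), and control 24 h leaves were at 4.02, 48.8 and 4.81, with 1 replicate far above the others and a log2 change over the day of 2.13 ± 0.69 (adjusted p = 0.0245). Delta-1-pyrroline-5-carboxylate synthase (P5CS, comp11948_c0_seq1), the entry enzyme of proline synthesis, was at 36.8, 56.0 and 65.6 RPKM (52.8 ± 14.7) before treatment and 448, 455 and 434 (446 ± 10.6) under salt, a log2 change of 3.09 ± 0.21 (adjusted p = 1.01e-07). Control leaves at 24 h were at 102.3, 123 and 132 RPKM, a rise of 1.19 ± 0.21 (adjusted p = 0.000859) over the day, and salt leaves exceeded them by 1.90 ± 0.21 (adjusted p = 1.05e-05), so the groups formed 3 separate levels. Proline dehydrogenase (comp25205_c1_seq2), which breaks proline down, moved the opposite way, from 9.53, 13.2 and 9.71 to 1.90, 1.73 and 1.65 RPKM, with a log2 change of -2.09 ± 0.22 (adjusted p = 3.59e-06). A galactinol-sucrose galactosyltransferase (comp14404_c0_seq1), of the family that makes raffinose, was at 7.20, 14.3 and 65.3 and then 373, 467 and 354 RPKM. The log2 change was 4.29 ± 0.57 (adjusted p = 2.13e-05), and 5.15 without control 0 h replicate 3.

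In all, 28 transcripts of osmolyte enzymes were tested, and at an adjusted p of 0.05, 6 rose and 18 fell, with a median log2 change of -1.19. Of the 18, 16 were isoforms of 1 component (comp25892_c0) described as a sucrose-phosphate synthase, an enzyme of sucrose synthesis, so the count is largely that of 1 component. These isoforms also had negative log2 changes in control leaves over the day, of -0.99 to -0.67, and none passed the test between salt and control leaves at 24 h (-0.63 to -0.12, adjusted p = 0.0788 to 0.765). Of the whole list, 13 fell and 5 rose in control leaves. The other members that fell were both proline-degrading transcripts. Trehalose-6-phosphate synthase (comp26338_c0_seq2), inositol phosphate synthases and trehalose-phosphate phosphatase supplied the remaining increases. Isoform 1 of the first changed by 0.03 (adjusted p = 0.945). The phosphatase (comp17913_c0_seq1) and an inositol-3-phosphate synthase (comp13205_c0_seq1) also rose in control leaves over the day, by 1.20 and 0.95 (adjusted p = 0.00109 and 0.00234). Neither passed between salt and control leaves at 24 h (-0.28 and -0.23, adjusted p = 0.315 and 0.361). Chosen after its values were seen, myo-inositol-1-phosphate synthase (comp12425_c0_seq1) was the most abundant member, with a mean of 2238 RPKM in control 0 h, 7109 in control 24 h and 7543 in salt 24 h. Its level was thus already high in control leaves a day later, and its log2 change between salt and control at 24 h was 0.08 (adjusted p = 0.842).

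The list for amino acid breakdown and asparagine synthesis held 10 tested transcripts in 7 components. Among them, homogentisate phytyltransferase (comp22763_c1_seq2) was matched by its name and does not break down an amino acid. All 10 rose, with a median log2 change of 2.25, and 9 of them were called. Their summed level was 114.7 to 185 RPKM in control 0 h, 282 to 398 in control 24 h and 652 to 745 in salt 24 h. The same 10 were also higher in salt than in control leaves at 24 h (24.2% of all tested were), whereas 3 of them were higher in control leaves at 24 h than at 0 h (16.2% of all tested). Isoforms of a branched-chain amino acid aminotransferase (comp26136_c1), which removes the amino group from leucine, isoleucine and valine, were at or near 0 before treatment. Isoform 7 was listed at 0 in every control 0 h replicate and was at 4.36, 2.34 and 3.81 RPKM under salt, and isoform 8 went from 0, 0.0950 and 0.265 to 4.78, 6.21 and 6.83 RPKM. The listed isoforms of this component share reads. They were under 1 RPKM in every control replicate, so they passed the filter only through salt-treated leaves. Alpha-aminoadipic semialdehyde synthase (comp11676_c0_seq1), which starts lysine breakdown, was at 1.30, 0.98 and 5.86 RPKM before and 69.0, 71.8 and 69.1 after salt, a log2 change of 4.50 ± 0.45 (adjusted p = 1.92e-06). The salt replicates differed by less than the control replicates. 4-Hydroxyphenylpyruvate dioxygenase (comp23645_c0_seq1), of tyrosine breakdown, rose by 2.24 ± 0.20 (adjusted p = 6.31e-07), beside 1.69 ± 0.20 (adjusted p = 0.000117) in control leaves over the same day.

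Sugar and carbon genes also changed. Of 12 sugar transporters tested, 5 rose and 1 fell, and all 5 were called, while the median log2 change of the 12 was -0.11. The single fall became 2 without control 0 h replicate 1 or 3. SWEET11-like transporters (comp26249_c0), which release sucrose from leaf cells, were among the steepest risers: isoform 6 was at 0.965, 2.66 and 22.0 RPKM before and 164, 199 and 135 after salt. Its log2 change was 4.91 ± 0.76 (adjusted p = 8.41e-05), or 5.94 without control 0 h replicate 3, and isoform 5 changed by 4.87, or 5.82 without that replicate. A polyol transporter (comp16836_c0_seq1) rose from 3.92 ± 2.76 to 33.8 ± 3.95 RPKM, an inositol transporter (comp10770_c0_seq1) from 18.6 ± 6.08 to 96.0 ± 9.62, and a SWEET1-like transporter (comp15567_c0_seq1) from 6.57 ± 2.31 to 25.02 ± 9.10. The polyol and inositol transporters also rose in control leaves over the day, by 1.11 ± 0.34 (adjusted p = 0.0171) and 1.00 ± 0.23 (adjusted p = 0.00399), and the SWEET1-like transporter changed by -0.07 there (adjusted p = 0.865). Phosphoenolpyruvate carboxylase kinase (comp14467_c0_seq2), which activates an enzyme of carbon entry into organic acids, was at 0, 0.475 and 3.97 RPKM in control 0 h and 37.4, 42.8 and 31.2 in salt 24 h. The log2 change was 4.28 ± 0.48 (adjusted p = 4.86e-06), and 4.96 without control 0 h replicate 3. In starch metabolism, 3 of 15 transcripts rose and 3 fell (with replicates set to 1 median, 1 fell), and the largest rise was that of a starch synthase (comp24470_c0_seq3), 1.23 ± 0.28 (adjusted p = 0.00160), beside 0.81 ± 0.28 (adjusted p = 0.0324) in control leaves over the day and 0.42 ± 0.28 (adjusted p = 0.23) between salt and control leaves at 24 h. Transketolase (comp25365_c1_seq1), a carbon-shuffling enzyme of the Calvin cycle and the pentose phosphate pathway, fell from 9.17, 22.2 and 10.7 to 1.30, 0.630 and 1.88 RPKM, -2.67 ± 0.37 (adjusted p = 2.81e-05).

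**Figure D2:**
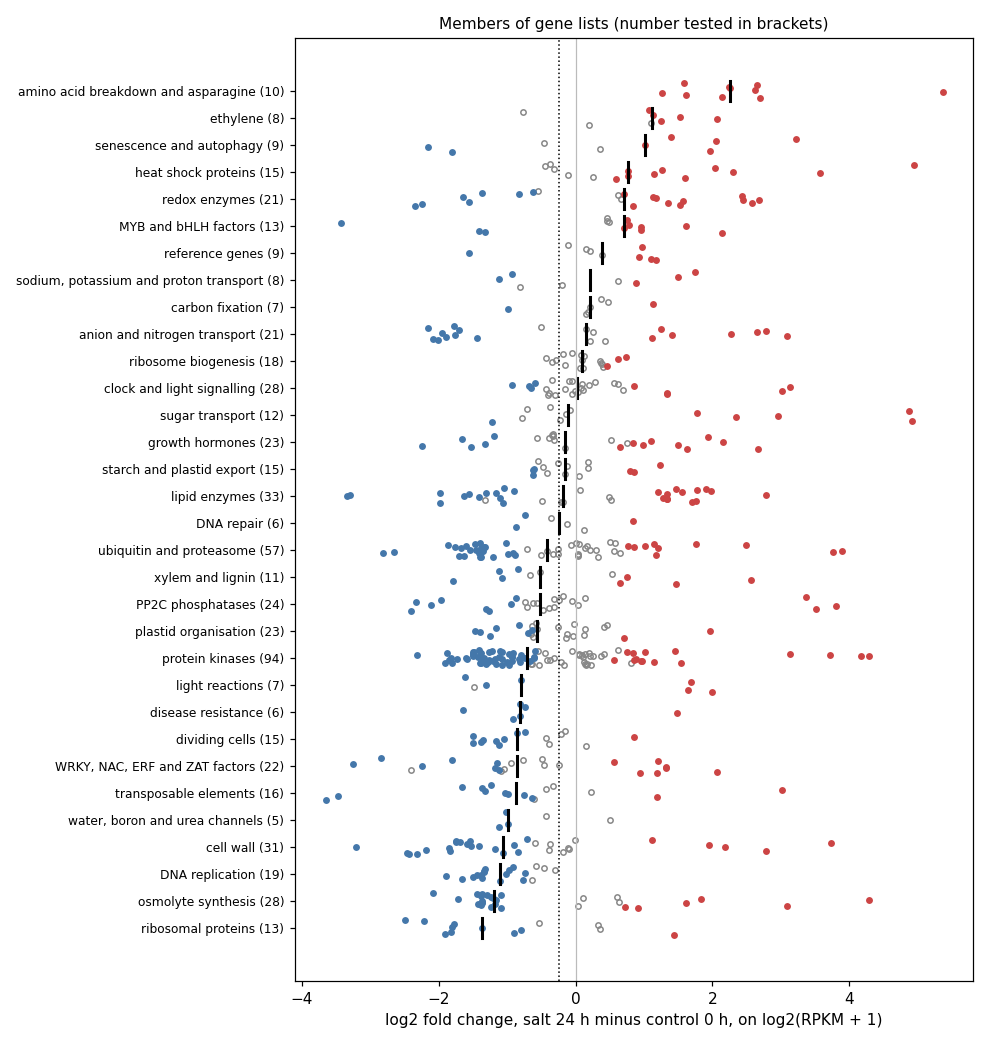
Log2 change between salt 24 h and control 0 h of each tested member of the gene lists with at least 5 members, 1 row per list. Red points rose and blue points fell at an adjusted p of 0.05, open grey points did not pass, black bars are list medians and the dotted line is the median of all tested transcripts, -0.24. The list of amino acid breakdown and asparagine has the highest median, 2.25, and ribosomal proteins the lowest, -1.37.

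Water channels fell while a sodium exchanger rose. Of 5 tested channels for water, boron and urea, 3 fell and none rose, and 1 rose without control 0 h replicate 3. The plasma membrane aquaporin PIP2-4 (comp16298_c1_seq1) was at 105, 107 and 112 RPKM in control 0 h, 279, 210.4 and 201 in control 24 h and 55.3, 58.6 and 37.0 in salt 24 h. No replicate of any group overlapped another group, and the log2 change of -1.11 ± 0.24 (adjusted p = 0.00112) ran against the rise of 1.07 ± 0.24 (adjusted p = 0.00335) in control leaves. The tonoplast aquaporin TIP4-1 (comp10877_c0_seq1) had the same order, with 19.8, 22.2 and 26.6 RPKM in control 0 h, 40.2, 42.6 and 46.7 in control 24 h and 8.27, 11.9 and 12.4 in salt 24 h, and a log2 change of -1.02 ± 0.23 (adjusted p = 0.00135). Against control leaves of the same hour, the log2 differences were -2.18 ± 0.24 (adjusted p = 8.94e-06) for PIP2-4 and -1.92 ± 0.23 (adjusted p = 1.53e-05) for TIP4-1. Of 8 transporters of sodium, potassium and protons, 3 rose and 2 fell, and the falls became 1 without control 0 h replicate 2 or salt 24 h replicate 3. A sodium proton exchanger (comp16645_c0_seq1), of the family that moves sodium out of the cytoplasm, rose from 8.15, 8.02 and 12.2 to 30.3, 29.0 and 42.3 RPKM, 1.74 ± 0.21 (adjusted p = 8.29e-06). The level in control 24 h lay between, at 16.1, 17.9 and 15.9 RPKM, with a rise of 0.78 ± 0.21 (adjusted p = 0.00926) over the day and a difference from salt leaves of 0.96 ± 0.21 (adjusted p = 0.00177). A potassium transporter 11-like transcript (comp18162_c0_seq2) rose from 4.32, 5.48 and 11.7 to 18.2, 22.9 and 20.6 RPKM (adjusted p = 0.000776). In control 24 h it was at 9.57, 9.73 and 14.3 RPKM, and salt leaves differed from these by 0.84 ± 0.31 (adjusted p = 0.0362). Another transcript of that description (comp7592_c0_seq1) did not pass, at 0.63 ± 0.29 (adjusted p = 0.0748). The potassium channel AKT2/3 (comp23771_c0_seq1) fell by 1.12 ± 0.33 (adjusted p = 0.00837), and did not pass without salt 24 h replicate 3 (log2 change -0.86, adjusted p = 0.0501) or with a pseudocount of 0.1 (-1.60, adjusted p = 0.102). It also fell in control leaves over the day, by 1.51 ± 0.33 (adjusted p = 0.00273), to 0, 1.15 and 1.495 RPKM, and salt leaves, at 1.67, 1.84 and 0.615, overlapped these (log2 difference 0.40 ± 0.33, adjusted p = 0.332).

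Nitrogen and anion transporters split. Of 21 tested, 7 rose (33.3%) and 9 fell (42.9%), beside 27.5% and 35% of all tested transcripts, and 14 of them were called. The risers were mainly amino acid carriers. A vacuolar amino acid transporter (comp7589_c0_seq2) was at 0, 0.145 and 0 RPKM before treatment, listed at 0 in all control 24 h replicates, and at 4.50, 13.5 and 7.90 under salt. That transporter was under 1 RPKM in every replicate of the other groups, so it passed the filter only through salt 24 h leaves. An amino acid permease 6 (comp25595_c0_seq5) rose from 2.28, 2.07 and 5.69 to 25.9, 26.8 and 28.2 RPKM, 2.78 ± 0.32 (adjusted p = 5.23e-06). Chosen after their values were seen, another amino acid permease 6 (comp13398_c0, 2 isoforms), a PHO1-like phosphate transporter (comp16186_c0, 4 isoforms) and a peptide transporter (comp11722_c0, 2 isoforms) made up 8 of the 9 falls, with log2 changes of -2.15 to -1.71. The 4 PHO1-like isoforms also fell in control leaves over the day, with log2 changes of -1.47 to -1.30 (adjusted p = 0.00509 to 0.011), and none passed between salt and control leaves at 24 h (-0.58 to -0.40, adjusted p = 0.158 to 0.372). For the permease and the peptide transporter, 1 isoform each passed in control leaves, and all 4 isoforms were lower in salt than in control leaves at 24 h.

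The list made for abscisic acid matched PP2C phosphatases of any kind and no other gene, so its counts describe that family and not the hormone's pathway. Of these 24 phosphatases, 3 rose and 8 fell, with a median log2 change of -0.51. The 3 that rose were the isoforms of a PP2C 8-like phosphatase (comp21321_c1), of a family in which some members restrain abscisic acid signalling. Isoform 1 of it went from 0.245, 0.355 and 2.01 to 22.1, 27.7 and 20.0 RPKM, a log2 change of 3.81 ± 0.37 (adjusted p = 1.55e-06). Of the 8 that fell, 4 were isoforms of a PP2C 5-like component, and these 4 also fell in control leaves over the day, by 1.58 to 1.85 on the log2 scale. Its isoform 1 (comp22720_c0_seq1) fell from 20.4, 22.6 and 18.3 to 2.80, 3.20 and 3.86 RPKM, -2.32 ± 0.24 (adjusted p = 2.43e-06), with control leaves at 24 h at 6.90, 6.42 and 3.95 and a difference from these of -0.64 ± 0.24 (adjusted p = 0.04), while the other 3 isoforms did not pass against control leaves at 24 h. The regulatory gamma subunit of the SnRK1 energy-sensing kinase (comp24211_c0_seq2) was at 1.99, 1.10 and 9.73 RPKM in control 0 h, 10.7, 22.1 and 20.5 in control 24 h and 65.4, 79.6 and 72.1 in salt 24 h. Its log2 change of 4.17 ± 0.46 (adjusted p = 4.4e-06), or 4.87 without control 0 h replicate 3, stood beside 2.14 ± 0.46 (adjusted p = 0.00264) in control leaves over the day and 2.03 ± 0.46 (adjusted p = 0.00252) between salt and control leaves at 24 h. Of 94 protein kinases and kinase subunits tested, 15 rose and 51 fell, with a median of -0.70, and 44 fell with replicates set to 1 median. Over the day in control leaves, 8 of the 94 rose and 33 fell, with a median of -0.53. Between salt and control leaves at 24 h, 11 rose and 17 fell, with a median of -0.03. A receptor-like kinase (comp13876_c1_seq1) rose from 5.81 ± 3.65 to 54.2 ± 9.64 RPKM.

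Ethylene genes rose in part. Of 8 tested, 5 rose and none fell, with a median log2 change of 1.11, and 3 rose without control 0 h replicate 1 or 2 or without salt 24 h replicate 2 or 3. ACC oxidase (comp16626_c1_seq1), the last enzyme of ethylene synthesis, went from 68.2, 109 and 110.3 to 223, 309 and 289 RPKM, 1.52 ± 0.39 (adjusted p = 0.00345). An ethylene-responsive factor (comp21299_c0_seq1) rose from 0, 0.145 and 0.415 to 4.09, 4.48 and 3.21 RPKM. The factor was under 1 RPKM in every replicate of the other groups, so it passed the filter only through salt 24 h leaves. Of 23 genes of growth hormones, 9 rose and 5 fell. A phosphoribohydrolase that releases active cytokinin (comp25039_c1_seq2) rose from 3.57, 3.87 and 3.76 to 20.8, 28.4 and 41.3 RPKM, 2.67 ± 0.30 (adjusted p = 5.62e-06), beside a rise of 0.94 ± 0.30 (adjusted p = 0.0252) in control leaves over the day. Isoform 7 of its component rose by 2.15. Isoforms 3 and 5, of the same kind of enzyme and at higher means of 17.9 and 12.5 RPKM in control 0 h, changed by -0.15 (adjusted p = 0.626) and -0.33 (adjusted p = 0.29). The isoforms share reads. Gibberellin 3-oxidase (comp22210_c0_seq1), which makes active gibberellin, fell from 18.3, 10.3 and 5.97 to 1.81, 1.57 and 1.00 RPKM, -2.24 ± 0.38 (adjusted p = 0.000171).

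Transcription factors went both ways. Of 22 WRKY, NAC, ERF and ZAT factors, 7 rose and 7 fell (31.8% each), near the 27.5% and 35% of all tested transcripts. Of 13 MYB and bHLH factors in 8 components, 7 rose and 3 fell (4 rose without control 0 h replicate 2), and the risers included several isoforms each of comp22997_c0 and comp10033_c0. The factor bHLH71 (comp12253_c0_seq1), of the bHLH family, which in Arabidopsis includes regulators of stomatal development, was at 146, 125 and 98.3 RPKM (123 ± 23.8) before and 8.45, 9.78 and 13.5 (10.6 ± 2.63) after salt, with control 24 h at 67.9, 34.5 and 31.5. The fitted log2 change was -3.42 ± 0.28 (adjusted p = 4.27e-07), and the 3 groups did not overlap. A WRKY factor (comp26279_c1_seq1) fell from 25.5, 27.5 and 21.5 to 1.23, 1.96 and 2.05 RPKM, -3.24 ± 0.56 (adjusted p = 0.000201), and its difference from control leaves at 24 h did not pass the test, at -1.37 ± 0.56 (adjusted p = 0.0564). Rising factors included an AP2/ERF and B3 domain protein (comp21571_c0_seq1), from 155 ± 39.9 to 353 ± 36.6 RPKM, and bHLH122 (comp24399_c1_seq3), from 6.05 ± 1.73 to 29.7 ± 2.83. For bHLH122, control 24 h was at 17.1, 22.1 and 22.4 RPKM, a rise of 1.63 ± 0.25 (adjusted p = 0.000384), and its difference between salt and control leaves at 24 h did not pass, at 0.52 ± 0.25 (adjusted p = 0.101). A calmodulin-binding protein (comp12846_c0_seq1), of calcium signalling, fell from 36.2, 40.9 and 44.7 to 1.84, 2.19 and 4.35 RPKM, -3.51 ± 0.66 (adjusted p = 0.000389). In control leaves at 24 h it was at 20.1, 19.0 and 2.25 RPKM, so 1 control replicate lay among the salt values, and the difference between salt and control leaves at 24 h was -1.61 (adjusted p = 0.0568).

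Of 28 transcripts of the clock and of light signalling, 5 rose and 4 fell, and with replicates set to 1 median 8 rose and 1 fell. The falls became 2 without control 0 h replicate 2 or salt 24 h replicate 3. Isoforms of comp21386_c0 described as CONSTANS 1, a regulator of flowering time, rose by 3.13 and 3.02. Another isoform of that component is described as a reverse transcriptase of a retroelement (log2 change 3.01), so the identity of the transcript is uncertain. A salt tolerance-like B-box protein (comp14982_c0_seq2) rose from 11.3, 10.99 and 9.58 to 27.0, 26.2 and 32.5 RPKM, 1.34 ± 0.20 (adjusted p = 6.61e-05). Control leaves at 24 h were at 20.2, 21.4 and 25.2, and the difference between salt and control leaves at 24 h did not pass the test, at 0.34 ± 0.20 (adjusted p = 0.176).

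Chaperones rose. Of 15 heat shock proteins and heat stress factors, 10 rose, 6 of them called, and none fell, with a median log2 change of 0.77. Their summed level was 1217 to 1957 RPKM in control 0 h, 3050 to 3638 in control 24 h and 4943 to 6252 in salt 24 h. A heat shock cognate 70 kDa transcript (comp16641_c0_seq2), a chaperone that binds unfolded proteins, was at 1.04, 0.500 and 9.61 RPKM in control 0 h, 5.56, 3.06 and 4.11 in control 24 h and 98.7, 85.5 and 107 in salt 24 h. The log2 change was 4.94 ± 0.60 (adjusted p = 9.13e-06), and 5.81 without control 0 h replicate 3. Another heat shock protein 70 (comp20827_c0_seq1) rose from 1.44, 0.835 and 1.40 to 7.85, 8.43 and 7.91 RPKM, 2.04 ± 0.19 (adjusted p = 1.24e-06). A chloroplast DnaJ co-chaperone (comp12230_c0_seq1) went from 25.7, 25.3 and 68.0 to 376, 399.9 and 538 RPKM, but control leaves at 24 h were at 258, 606 and 316. Its log2 change of 3.57 ± 0.36 (adjusted p = 2.25e-06) stood beside 3.34 ± 0.36 (adjusted p = 0.000117) in control leaves over the same day. Of 57 transcripts of the ubiquitin system, which tags proteins for breakdown, 10 rose and 26 fell. A RING and CHY zinc finger ligase (comp15824_c0_seq2) was the largest riser among them, from 4.98, 4.12 and 13.4 to 103, 128 and 107 RPKM. The fitted log2 change was 3.90 ± 0.41 (adjusted p = 2.8e-06), while control leaves at 24 h, at 5.47, 7.52 and 11.3, overlapped those at 0 h. The peptidyl-prolyl isomerase FKBP65 (comp23853_c0_seq1), a protein-folding enzyme, fell from 16.1, 13.5 and 9.05 to 0.380, 0.550 and 0.260 RPKM, -3.28 ± 0.27 (adjusted p = 4.27e-07), beside -1.42 ± 0.27 (adjusted p = 0.00115) in control leaves over the day.

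Proteases and genes linked to leaf senescence were few. Of 9 tested, 5 rose and 2 fell, with a median of 1.02. A cysteine proteinase inhibitor (comp7634_c0_seq1) rose by 1.96 ± 0.32 (adjusted p = 0.000146), and a cysteine protease (comp11487_c0_seq1) fell from 40.8, 53.1 and 32.7 to 6.82, 11.3 and 7.89 RPKM, -2.16 ± 0.31 (adjusted p = 4.77e-05). A bifunctional nuclease 1 (comp15910_c0_seq1), of a family that degrades nucleic acids in ageing tissue, rose by 1.39 ± 0.25 (adjusted p = 0.000246). The inhibitor and the nuclease had also risen in control leaves over the day, by 1.62 ± 0.32 (adjusted p = 0.00166) and 0.97 ± 0.25 (adjusted p = 0.00684). Neither differed past the test between salt and control leaves at 24 h, at 0.34 (adjusted p = 0.406) and 0.42 (adjusted p = 0.168). Of 6 disease resistance transcripts, 5 fell and 1 rose. In control leaves over the day 4 of the 6 fell and 1 rose, and none passed between salt and control leaves at 24 h. The receptor RGA3-like (comp22415_c0_seq2) fell from 4.18, 6.91 and 6.91 to 1.05, 1.59 and 1.03 RPKM, -1.64 ± 0.29 (adjusted p = 0.000216). Control leaves had it at 2.50, 1.91 and 1.14 RPKM at 24 h, a fall of 1.30 ± 0.29 (adjusted p = 0.00291), and they overlapped the salt leaves (log2 difference -0.34, adjusted p = 0.344).

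Redox enzymes divided by kind. Of 21 tested, 11 rose and 7 fell. A glutathione S-transferase (comp18195_c0_seq1), which conjugates reactive compounds, went from 0.410, 0.200 and 0 to 4.14, 4.39 and 8.83 RPKM, 2.44 ± 0.30 (adjusted p = 1.15e-05). Chosen after their values were seen, 3 further glutathione transferases (comp16946_c0_seq1, comp26161_c0_seq1 and comp10259_c0_seq1) rose by 2.58, 2.69 and 0.83 on the log2 scale, and the last of them did not pass against control leaves at 24 h (0.28, adjusted p = 0.397). Ascorbate oxidase homologs, apoplastic copper enzymes, supplied 5 of the 7 falls: comp9671_c0_seq2 went from 11.5, 11.9 and 7.62 to 1.32, 1.18 and 1.09 RPKM, -2.35 ± 0.29 (adjusted p = 1.17e-05), beside -0.88 ± 0.29 (adjusted p = 0.028) in control leaves. A blue copper-like protein (comp17191_c0_seq1) fell from 21.3, 17.6 and 11.1 to 1.47, 1.78 and 1.79 RPKM, -2.68 ± 0.30 (adjusted p = 4.54e-06).

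Genes of the light reactions split by member. Of 7 tested, 3 rose and 3 fell (42.9% each, beside 27.5% and 35% of all tested transcripts), with a median of -0.79. The risers included both isoforms of a ferredoxin-NADP reductase component (comp13151_c0), 1 of them described as the root form: isoform 2 went from 16.0, 11.8 and 9.26 to 39.7, 29.7 and 58.5 RPKM, 1.69 ± 0.25 (adjusted p = 5.96e-05). A photosystem II reaction center family protein (comp12720_c0_seq2) fell from 34.4, 41.4 and 32.7 to 9.62, 13.4 and 10.6 RPKM, -1.61 ± 0.25 (adjusted p = 7.69e-05). In the light-harvesting antenna, chlorophyll a-b binding protein comp25306_c0_seq3 was at 2589, 1854 and 1928 RPKM in control 0 h, 4822, 3961 and 3470 in control 24 h and 1176, 1205 and 1263 in salt 24 h. Its log2 change of -0.79 ± 0.25 (adjusted p = 0.0128) did not pass without control 0 h replicate 1 (adjusted p = 0.0572) or with replicates set to 1 median (adjusted p = 0.0516), whereas the log2 difference between salt and control leaves at 24 h was -1.74 ± 0.25 (adjusted p = 7.57e-05). The rise of 0.95 ± 0.25 (adjusted p = 0.00838) in control leaves over the day became -0.018 (adjusted p = 0.955) under quantile normalization. Component comp28131_c1, undescribed in the deposited annotation and named by the study as another antenna protein, changed unevenly. Its isoform 9 fell from 6753, 5765 and 4789 to 1561, 1317 and 1531 RPKM, -1.96 ± 0.30 (adjusted p = 7.66e-05). Isoforms 1 and 2 fell by 1.68 and 1.18 on the log2 scale, isoform 3 changed by -0.62 ± 0.26 (adjusted p = 0.0509), and isoform 5 by 0.41 ± 0.26 (adjusted p = 0.181). Isoform 3 passed the test without control 0 h replicate 1 (-0.83, adjusted p = 0.0194) or salt 24 h replicate 1 (-0.74, adjusted p = 0.0486). All 5 isoforms were lower in salt than in control leaves at 24 h.

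All 3 tested transcripts of chlorophyll synthesis and its control fell. The regulator FLUORESCENT IN BLUE LIGHT (comp11029_c0_seq1), which holds back chlorophyll synthesis in the dark, went from 40.9, 37.5 and 23.2 to 6.67, 5.65 and 7.93 RPKM, -2.14 ± 0.26 (adjusted p = 8.65e-06), and isoform 2 shares reads with it. Its control 24 h level lay between, at 17.8, 9.67 and 14.5 RPKM, after a fall of 1.22 ± 0.26 (adjusted p = 0.00235) over the day, and the difference between salt and control leaves at 24 h was -0.92 ± 0.26 (adjusted p = 0.00909). The transcript comp12352_c0_seq1, described as a chloroplast protochlorophyllide protein and probably the oxidoreductase that makes chlorophyllide in the light, was at 373 ± 46.7 and 249.6 ± 21.9 RPKM. Its log2 change was -0.58 ± 0.21 (adjusted p = 0.0275), and the adjusted p was 0.0925 without control 0 h replicate 1, 0.0664 and 0.0844 without salt 24 h replicates 2 and 3, and 0.13 with replicates set to 1 median. Of 7 carbon fixation transcripts, 1 rose and 1 fell at an adjusted p of 0.05, and neither was called. The RuBisCO subunit-binding chaperonin (comp11961_c0_seq1) changed by -0.99 ± 0.31 (adjusted p = 0.0115), or by -0.80 (adjusted p = 0.0582) without control 0 h replicate 2. It was at 330, 358 and 178 RPKM in control 0 h, 119, 49.6 and 94.3 in control 24 h and 135, 120 and 164 in salt 24 h. The fall in control leaves was -1.73 ± 0.31 (adjusted p = 0.000767), and salt leaves, all above control leaves of the same hour, differed from them by 0.74 ± 0.31 (adjusted p = 0.0584). A nectarin-3-like transcript described as both a monodehydroascorbate reductase and a carbonic anhydrase (comp7212_c0_seq1) changed by 1.13 ± 0.35 (adjusted p = 0.0115), or by 0.80 (adjusted p = 0.0683) without control 0 h replicate 1 and 0.89 (adjusted p = 0.0589) without salt 24 h replicate 3, and did not pass with a pseudocount of 0.1 (1.86, adjusted p = 0.0795). Of 23 transcripts of plastid gene expression and biogenesis, 2 rose and 7 fell, and with replicates set to 1 median 4 rose and 4 fell. Without control 0 h replicate 1, 4 fell, and 1 rose without any 1 of the 6 replicates. Over the day in control leaves, 12 of the 23 fell and 1 rose. Between salt and control leaves at 24 h, 5 rose and none fell.

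Cell wall genes mostly fell. Of 31 cell wall transcripts, 19 fell and 5 rose, with a median log2 change of -1.06. The cell wall protein EXP1 precursor (comp25698_c1_seq3), of a component that also holds an isoform described as an expansin, a kind of protein that loosens walls in growing cells, was at 47.1, 52.8 and 27.98 RPKM in control 0 h, 103, 109 and 74.9 in control 24 h and 5.55, 9.77 and 5.44 in salt 24 h. Control leaves had risen by 1.18 ± 0.33 (adjusted p = 0.0125) over the day, and salt leaves had fallen by 2.46 ± 0.33 (adjusted p = 2.53e-05). Of the 5 that rose, 4 were described as beta-galactosidases, which remove galactose from wall polymers, and comp11309_c0_seq1 of these went from 17.5, 16.0 and 19.0 to 76.6, 66.2 and 68.3 RPKM. A 14 kDa proline-rich protein (comp12482_c0_seq1) fell from 276, 325 and 151 to 21.8, 14.4 and 36.9 RPKM, -3.34 ± 0.41 (adjusted p = 9.5e-06), beside -1.43 ± 0.41 (adjusted p = 0.0127) in control leaves over the day. An ory s 1 pollen allergen-like protein (comp15527_c0_seq1), of the beta-expansin family, instead went from 0, 0 and 6.23 to 54.2, 64.4 and 49.6 RPKM. This was a log2 change of 4.88 ± 0.59 (adjusted p = 9e-06), and 5.83 without control 0 h replicate 3, the only control 0 h replicate in which it was above 0.

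Of 33 lipid enzymes, 13 rose and 13 fell. A GDSL esterase (comp11731_c0_seq1) was at 33.5, 51.2 and 47.9 RPKM in control 0 h, 69.2, 50.3 and 61.9 in control 24 h and 4.28, 3.82 and 2.37 in salt 24 h, a log2 change of -3.34 ± 0.26 (adjusted p = 2.66e-07). Control leaves at 24 h lay within or above the range at 0 h. Glycerol-3-phosphate acyltransferase 1 (comp6731_c0_seq2), which acylates glycerol in lipid synthesis, fell from 11.3, 18.7 and 10.9 to 0.270, 0.400 and 0.735 RPKM, -3.29 ± 0.48 (adjusted p = 4.86e-05). A monoglyceride lipase (comp22525_c0_seq3), which releases fatty acids, rose from 0.115, 0 and 0 to 2.11, 3.38 and 3.25 RPKM, 1.90 ± 0.17 (adjusted p = 7.85e-07). This lipase was under 1 RPKM in every replicate of the other groups, so it passed the filter only through salt 24 h leaves. Hydroquinone glucosyltransferase (comp7766_c0_seq1), which attaches glucose to phenolic compounds, fell from 22.3, 11.8 and 11.5 to 0.375, 1.96 and 0.515 RPKM, -3.08 ± 0.35 (adjusted p = 5.79e-06).

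Genes of DNA replication fell in salt leaves and in control leaves. Of 19 tested, 15 fell and none rose, with a median log2 change of -1.10. In control leaves 12 of the 19 fell between 0 and 24 h (22.1% of all tested did), and between salt and control leaves at 24 h 1 fell and none rose (2 fell without control 24 h replicate 2). The licensing factor MCM2 (comp9318_c0_seq1), which opens replication origins, was at 4.75, 6.19 and 3.53 RPKM in control 0 h, 1.15, 0.830 and 0.975 in control 24 h and 0.895, 0.230 and 0.575 in salt 24 h. Its log2 change was -1.89 ± 0.27 (adjusted p = 4.46e-05), and control 24 h replicates overlapped the salt replicates. Replication protein A (comp25213_c0_seq3), which coats single-stranded DNA, fell by 1.32 ± 0.24 (adjusted p = 0.000262) under salt and 1.43 ± 0.24 (adjusted p = 0.000545) in control leaves. Among 15 markers of dividing cells, 9 fell and 1 rose. Cyclin A2 (comp25876_c0_seq1), which drives the cell cycle, fell from 2.82, 2.00 and 1.67 to 0.265, 0 and 0.370 RPKM, -1.38 ± 0.29 (adjusted p = 0.000906), with -0.76 (adjusted p = 0.0498) in control leaves and -0.62 (adjusted p = 0.0899) between salt and control leaves at 24 h. Of these markers, 12 fell and 1 rose in control leaves over the day. Fewer dividing cells in a leaf and less RNA per dividing cell cannot be told apart in these pooled leaves.

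Nucleolar genes of ribosome assembly moved differently. Of 18 tested, 3 rose and none fell between control 0 h and salt 24 h, with a median of 0.10, and 0 or 1 rose when a replicate other than control 0 h replicate 3 was left out. In control leaves, 10 of the 18 fell over the day, or 5 without control 0 h replicate 2 or control 24 h replicate 2. Salt leaves exceeded control leaves at 24 h for 10 of them. The summed level was 28.2 to 33.6 RPKM in control 0 h, 9.81 to 13.5 in control 24 h and 32.5 to 44.1 in salt 24 h. The summed level in salt leaves thus overlapped that at 0 h or lay above it, and that in control leaves lay below both. Of 13 structural ribosomal proteins, 9 fell and 1 rose, with a median of -1.37, and 5 fell without control 0 h replicate 1. Over the day in control leaves, 5 of the 13 fell and 0 rose, with a median of -1.51. Between salt and control leaves at 24 h, 4 of the 13 rose and 2 fell, with a median of -0.11. The largest share of their RNA came from a chloroplast 50S protein (comp13240_c0_seq1), which went from 2165, 1011 and 733 to 343, 371 and 239.9 RPKM, -1.90 ± 0.39 (adjusted p = 0.000733). A 60S protein, L23a (comp9044_c0_seq1), was the 1 that rose, from 2.44, 1.71 and 3.28 to 9.43, 8.32 and 7.15 RPKM.

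**Figure D3:**
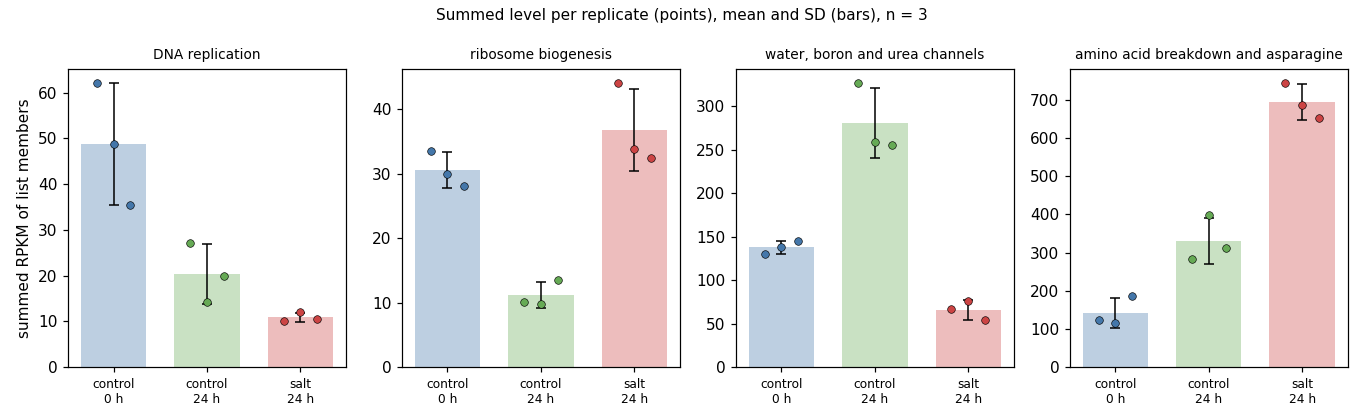
Summed RPKM of the members of 4 gene lists in control 0 h, control 24 h and salt 24 h. Points are the 3 replicates, bars start at 0 and show the mean, and error bars show the SD. DNA replication is lower at 24 h in both groups, ribosome biogenesis is low in control 24 h alone (9.81 to 13.5 RPKM), and water channels are highest in control 24 h and lowest in salt 24 h (53.6 to 76.4 RPKM).

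DNA repair and transposable elements showed smaller counts. Of 6 repair genes, 1 rose and 2 fell. Ku80 (comp10364_c0_seq1), which binds broken DNA ends, was at 2.81, 2.66 and 2.56 RPKM in control 0 h, 0.895, 1.39 and 1.70 in control 24 h and 6.38, 4.64 and 5.84 in salt 24 h, a log2 change of 0.84 ± 0.26 (adjusted p = 0.00996). The 2 that fell were isoforms of a BRCA1 homolog (comp26035_c0) at low levels, and neither passed without salt 24 h replicate 2 (adjusted p = 0.057 and 0.0772). With HP columns only, their log2 changes of -0.74 for isoform 4 and -0.88 for isoform 6 became -0.20 (adjusted p = 0.65) and -0.70 (adjusted p = 0.185), and neither passed under quantile normalization (adjusted p = 0.0746 and 0.0863). Isoform 6 also failed without control 0 h replicate 1 (0.0888), without salt 24 h replicate 3 (0.0656) or with replicates set to 1 median (0.0619). HP columns are those of the libraries made with HPLC-purified index primers. Of 16 transposable element transcripts, 10 fell and 2 rose, with a median log2 change of -0.87, and 1 rose without control 0 h replicate 1 or 2. Over the day in control leaves, 9 of the 16 fell and 1 rose, with a median of -1.06. Between salt and control leaves at 24 h, 4 rose and 3 fell, with a median of 0.28. A retrotransposon-like transcript (comp7491_c0_seq1) was at 16.3, 15.9 and 14.8 RPKM in control 0 h, 0.625, 2.61 and 0.920 in control 24 h and 0.650, 0.210 and 0.170 in salt 24 h. This was a log2 change of -3.65 ± 0.44 (adjusted p = 9e-06), beside -2.89 ± 0.44 (adjusted p = 0.000373) in control leaves over the day, and the difference between salt and control leaves at 24 h did not pass the test, at -0.76 ± 0.44 (adjusted p = 0.171). A retroelement polyprotein (comp25350_c0_seq2) fell from 24.7, 12.0 and 7.67 to 0.0900, 0.270 and 0.550 RPKM, -3.47 ± 0.42 (adjusted p = 8.99e-06), beside -1.46 ± 0.42 (adjusted p = 0.0134) in control leaves over the day.

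Of 132 named transcripts that passed an adjusted p of 0.05 between salt 24 h and control 0 h, 55 also passed in control leaves over the day in the same direction and 6 in the opposite one, and 36 did not pass between salt and control leaves at 24 h. Some named transcripts were chosen for their change in control leaves over the day, so these counts are in part a result of that choice. Control leaves between 0 and 24 h had 319 calls (6.85%), 153 higher (3.28%) and 166 lower (3.56%), and salt against control leaves at 24 h had 677 (14.5%), 343 higher (7.36%) and 334 lower (7.17%). The first shares the control 0 h replicates with the main comparison and the second shares the salt 24 h replicates, so their values are given next to each other and no agreement is read from them. The 319 became 43 and 19 without control 0 h replicates 1 and 2 and 119, 43 and 83 without control 24 h replicates 1, 2 and 3. The 677 became 379 without control 24 h replicate 1 and 364, 429 and 401 without salt 24 h replicates 1, 2 and 3. At an adjusted p of 0.05 the counts were 1782 (38.3%) and 2168 (46.5%). A trypsin proteinase inhibitor (comp25018_c0_seq1), a defence protein, was at 51.6, 130.2 and 256 RPKM in control 0 h, 1229, 1361 and 1323 in control 24 h and 539, 627 and 431 in salt 24 h. It rose by 2.12 ± 0.41 (adjusted p = 0.000439), or by 1.52 without control 0 h replicate 1, and yet its level was lower in salt than in control leaves of the same hour, -1.31 ± 0.41 (adjusted p = 0.0158). A polygalacturonase (comp15341_c0_seq1), which cuts pectin, fell from 17.8, 23.6 and 25.7 RPKM to 2.46, 2.495 and 1.83 in control 24 h and 4.16, 2.34 and 4.78 in salt 24 h. A pectate lyase (comp9199_c0_seq1) fell likewise, by 2.43 ± 0.36 (adjusted p = 6.23e-05) under salt and 1.95 ± 0.36 (adjusted p = 0.00106) without it. A yippee-like protein (comp26002_c0_seq1) rose by 3.87 ± 0.38 (adjusted p = 1.55e-06), and by 1.92 in control leaves and 1.95 between salt and control leaves at 24 h.

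**Figure D4:**
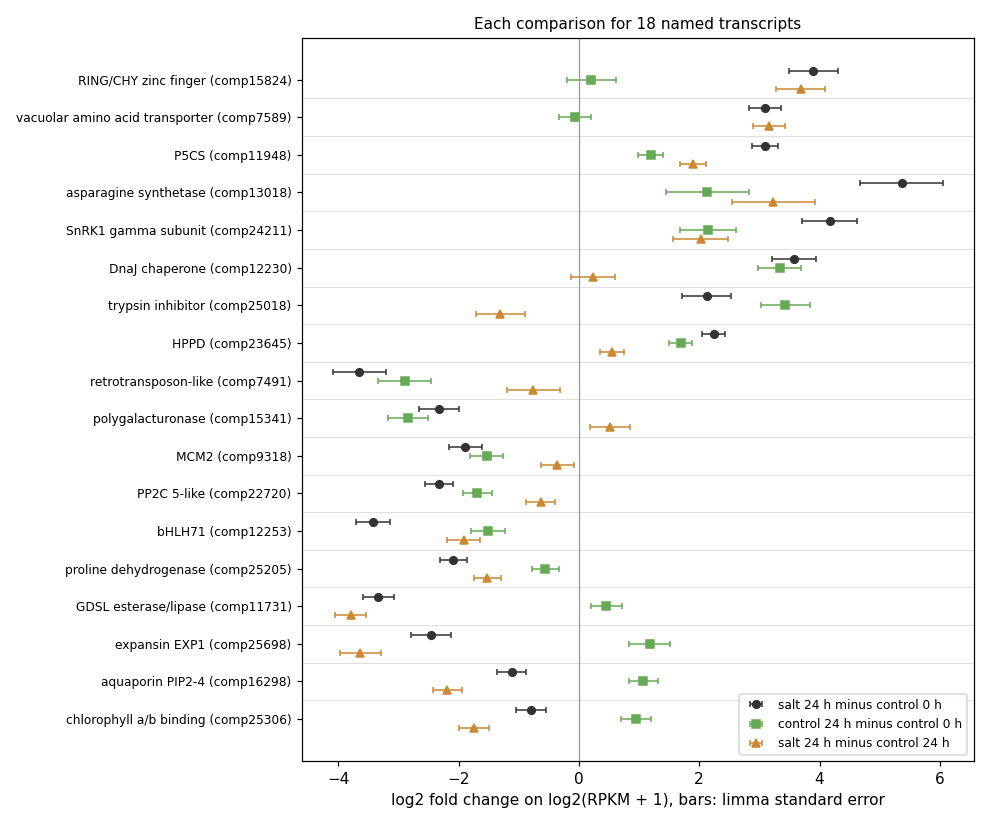
Log2 changes with limma standard errors of 18 named transcripts in the main comparison (circles), in control leaves over the day (squares) and between salt and control leaves at 24 h (triangles). The 18 were picked after their values were seen to show the range of patterns: DnaJ and polygalacturonase have nearly all of their change in control leaves, RING/CHY and the GDSL esterase nearly none, and PIP2-4, EXP1 and the chlorophyll a/b binding protein were higher at 24 h in control leaves and lower under salt than at 0 h. Under quantile normalization the log2 change of the chlorophyll a/b binding protein in control leaves was -0.018, and with replicates set to 1 median its fall under salt did not pass (adjusted p = 0.0516).

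The largest changes of all were in transcripts without a deposited description. The transcript comp31034_c0_seq1 was at 0.290, 0 and 10.01 RPKM in control 0 h, 0.715, 1.36 and 7.57 in control 24 h and 298, 312 and 249 in salt 24 h, a log2 change of 6.88 ± 0.80 (adjusted p = 6.51e-06), or 7.97 without control 0 h replicate 3. The study names it a low-temperature-induced protein, of a family known to respond to cold, drought and abscisic acid. Transcript comp32475_c0_seq1 went from 0, 0 and 3.00 to 109.6, 105 and 140.3 RPKM, 6.22 ± 0.56 (adjusted p = 8.73e-07), or 6.89 without that replicate. Transcript comp32085_c0_seq1 went from 1.04, 0.815 and 11.01 to 219, 245 and 283 RPKM, 6.14 ± 0.69 (adjusted p = 5.06e-06), or 7.02 without it. The study gives different names to comp32085_c0_seq1 in different places, so none is used here. In control leaves at 24 h, the former was at 0.380, 6.90 and 2.19 RPKM and the latter at 0.440, 6.04 and 6.26. An oleosin by the study's name (comp45963_c0_seq1), a protein that coats oil bodies, rose from 0, 0.13 and 0.490 to 26.4, 24.4 and 31.5 RPKM, 4.57 ± 0.29 (adjusted p = 3.85e-08). In control 24 h it was at 2.05, 5.05 and 2.13 RPKM, a rise of 1.70 ± 0.29 (adjusted p = 0.000626). An expansin-like B1 by the study's name (comp40589_c0_seq1) went from 0, 0 and 10.3 to 66.5, 58.1 and 68.8 RPKM, 4.87 ± 0.80 (adjusted p = 0.000132), and by 6.03 without control 0 h replicate 3, which alone was above 0.

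Among the undescribed transcripts that fell, comp8985_c1_seq1 went from 32.3, 63.8 and 38.9 to 0, 0 and 0.380 RPKM, -5.31 ± 0.43 (adjusted p = 4.27e-07), with 18.1, 4.14 and 20.8 RPKM in control 24 h, a fall of 1.78 ± 0.43 (adjusted p = 0.00516). Transcript comp30644_c0_seq1 fell from 71.3, 72.0 and 79.7 to 2.43, 1.37 and 2.18 RPKM, -4.67 ± 0.89 (adjusted p = 0.000436), while control leaves at 24 h were at 65.0, 89.7 and 2.31. Replicate 3 of control 24 h was thus at the salt level and the others at the 0 h level. The lowest change of all belonged to an isoform of the component that also held the largest described increase.

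In that component, comp15904_c0, the 3 isoforms were called in opposite directions, the only such component among those tested. Isoform 1, described as the precursor of DEA1, a protein induced by arachidonic acid in tomato, was at 1.49, 0 and 42.4 RPKM in control 0 h, 2.09, 3.71 and 69.1 in control 24 h and 321, 544 and 126 in salt 24 h. Its log2 change was 5.89 ± 1.17 (adjusted p = 0.000616), or 4.76 without control 0 h replicate 2 and 7.48 without replicate 3. Isoform 2, undescribed, was at 234, 325 and 242 RPKM in control 0 h, 139, 62.1 and 77.8 in control 24 h and 2.29, 4.30 and 10.1 in salt 24 h, -5.52 ± 0.41 (adjusted p = 1.9e-07). Isoform 3 rose by 4.64 ± 0.96 (adjusted p = 0.000842). Summed over the component, the level was 237, 325 and 295 RPKM in control 0 h and 438, 676 and 179 in salt 24 h, so the totals overlapped while the isoforms did not. Isoform values are estimates that divide shared reads, and whether the transcripts or the division of reads changed was not tested.

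Some transcripts were listed at 0 in all columns of 1 group and at 1 RPKM or more in every replicate of the other. There were 19 listed at 0 in control 0 h and 6 listed at 0 in salt 24 h, and no fold is given for them. With HP columns only these counts were 56 and 24. Of the 19, and chosen after its values were seen, comp6951_c0_seq1 was at 16.2, 23.4 and 23.6 RPKM in salt 24 h and at 0 in control 24 h. Both isoforms of a UPF0098 protein (comp8627_c0) were at 4.36 to 8.51 RPKM in salt 24 h and at 0 in control 24 h. The pathogenesis-related protein STH-2 (comp13913_c0_seq1), a defence protein, was at 1.04, 1.31 and 3.58 RPKM in salt 24 h and at 2.99, 3.8 and 6.54 in control 24 h. The 6 transcripts of the opposite kind were all undescribed, and comp74491_c0_seq1 among them was at 6.53, 6.36 and 4.26 RPKM in control 0 h. Such counts depend on depth, and its part in them was not tested.

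The leaf identity of the samples was checked with the lists of light reactions and carbon fixation, whose members were present in every group at summed levels of 1459 RPKM or more. Markers of other cells were mixed. The 1 epidermal marker, a 3-ketoacyl synthase (comp8015_c0_seq1), rose by 1.20 ± 0.31 (adjusted p = 0.00382) and did not pass against control leaves at 24 h (0.70, adjusted p = 0.0749), 4 of 11 xylem and lignin transcripts rose and 4 fell, and all 3 petal pigment transcripts rose, with summed levels of 10.8 to 24.3 RPKM in control 0 h, 27.9 to 42.6 in control 24 h and 44.6 to 51.5 in salt 24 h. Of these, comp20249_c0_seq2 changed by 2.06, or by 1.40 without salt 24 h replicate 3. The part of these markers in the results was not tested. Of 9 transcripts of genes often used as references, 4 rose, all isoforms of 1 component, and 1 fell. Glyceraldehyde-3-phosphate dehydrogenase (comp12361_c0_seq1) fell from 3803, 4092 and 2053 to 898, 1371 and 1028 RPKM, -1.55 ± 0.31 (adjusted p = 0.000688), and actin-related protein 8 (comp25989_c0_seq2) rose by 1.10 ± 0.23 (adjusted p = 0.00084), beside 0.70 ± 0.23 (adjusted p = 0.0246) in control leaves over the day and 0.40 ± 0.23 (adjusted p = 0.167) between salt and control leaves at 24 h.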

How the data were processed

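Leaf RNA was sequenced from poly(A)-selected, strand-specific libraries on 1 lane. The authors assembled reads with Trinity, estimated abundance with RSEM and deposited RPKM values per library for 4767 transcripts, together with annotation text (unit other) from Blast2GO. How these transcripts were selected, and whether RPKM were scaled further, is not given in the sources used here. RPKM keep no depth.

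The columns of a replicate made with the HP and NH index primers, repeat libraries of the same cDNA, were averaged, and log2(RPKM + 1) was taken. The table has 1 column, for salt 24 h replicate 2, beyond the libraries that the labels list for that group. It was not used because no listed sample matches it, so salt 24 h replicate 2 rests on 1 library. The labels also list a second library of control 6 h replicate 2, to which no column was matched. The study's library list holds a non-HPLC and an HPLC library of each salt 24 h replicate. It gives the non-HPLC library of 1 control 6 h replicate as failed. Control 6 h and salt 6 h replicates entered the fit to share 1 estimate of the spread. The 4658 transcripts with at least 1 RPKM in at least 3 replicates were tested with limma 3.58.1 (variance trend with mean level) in R 4.3.3, with Benjamini-Hochberg adjustment over all of them; tables were made with Python 3.11.15. p-values measure the spread between pools of plants within 1 experiment. Code was tested on simulated data.

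Gene lists were matched on descriptions; none matched jasmonate. Named transcripts are, for this comparison, up to 12 rising and 12 falling described transcripts with the largest change among those called, without overlap and 1 per component; up to 3 per list by lowest adjusted p; the 4 that moved most upward and the 4 that moved most downward in control leaves over the day; isoforms called in both directions; those the study names; and the 3 highest and 3 lowest without description. The members and lists were chosen with earlier results of these data known. Alternatives were the pseudocount, the filter, the block, HP columns only, the scaling, the groups in the fit, the threshold and each replicate left out.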

Additional observations from a re-analysis of the deposited data

How the results depend on the processing

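Counts of calls depended on the threshold and on the spread of few replicates, and no named transcript changed direction between salt 24 h and control 0 h. Of 134 named transcripts, 120 kept direction and side of the threshold of 0.05 under all 13 alternatives, 14 changed side under at least 1 and 0 reversed.

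Against 1227 calls (638 higher, 589 lower) between salt 24 h and control 0 h, 745 (274 lower) were made with HP columns only and 577 (315 higher, 262 lower) when no other group entered the fit. An adjusted p of 0.05 with no fold minimum gave 2912 (1283 higher, 1629 lower). Leaving out 1 replicate gave 721 to 1124 calls (414 to 637 higher, 307 to 487 lower). Against 319 calls (153 higher, 166 lower) in control leaves over the day, HP columns gave 83 (55 and 28), a pseudocount of 0.1 gave 156 (53 lower), quantile normalization gave 104 lower, 1 median gave 66 lower, and the threshold of 0.05 gave 1782 (754 and 1028). Leaving out 1 replicate gave 19 to 267 (10 to 164 higher, 9 to 103 lower). With only the compared groups, limma gave 0 calls (0 higher, 0 lower), while 2008 transcripts had an unadjusted p under 0.05 and 1273 an adjusted p under 0.05. Against 677 calls (343 higher, 334 lower) between salt and control leaves at 24 h, HP columns gave 389 (186 and 203), only the compared groups 160 (76 and 84), a pseudocount of 0.1 gave 195 higher, and the threshold of 0.05 gave 2168 (1129 and 1039). Leaving out 1 replicate gave 364 to 627 (178 to 290 higher, 186 to 337 lower). The component with isoforms called in opposite directions was not found with a pseudocount of 0.1 (0 components). With HP columns only, 80 transcripts were listed at 0 in 1 group, 56 in control 0 h and 24 in salt 24 h.

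In control leaves over the day, 3 log2 changes reversed under quantile normalization: -0.011 for comp28131_c1_seq2, -0.107 for comp28131_c1_seq3 and -0.018 for comp25306_c0_seq3 (adjusted p = 0.977, 0.772 and 0.955). The causes of these differences were not tested, beyond the fewer samples that leaving out replicates or groups leaves.

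Replicate numbers did not pair the samples of control 0 h and salt 24 h, which came from different plants. The correlations of deviations between their same-numbered replicates were 0.02, -0.05 and -0.07, and 2 of 6 samples correlated best with their own number. Between control 0 h and control 24 h the correlations were 0.14, 0.03 and 0.12. The study describes groups of plants set within each treatment and sampled at each time. Control leaves at 0 and 24 h thus probably came from the same plants, and the main fit treated them as independent. With the replicate number as a block, 1125 transcripts were called between salt 24 h and control 0 h, 175 (98 higher, 77 lower) in control leaves over the day and 619 between salt and control leaves at 24 h. RPKM without depth, pools of 3 plants and shared reads between isoforms limit the precision of single values.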

Other observations

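Some called transcripts of known kinds lay outside the rule for named transcripts, and those given here were chosen after their values were seen. Of proteases, aspartic proteinase nepenthesin-1 (comp26240_c0_seq1) rose from a mean of 14.6 to 158.6 RPKM, with a log2 change of 3.57 ± 0.50 (limma, adjusted p = 3.08e-05). Alanine aminotransferase (comp26518_c0_seq1), which exchanges amino groups between alanine and glutamate, rose from 8.58 to 75.5 RPKM, 3.00 ± 0.21 (adjusted p = 1.01e-07). A proline transporter (comp24102_c4_seq1) rose from 16.0 to 69.9 RPKM, 2.16 ± 0.28 (adjusted p = 1.6e-05). A ninja-family protein AFP2-like (comp16360_c0_seq3), of a family that in Arabidopsis restrains abscisic acid responses, rose from 0.897 to 15.4 RPKM, 3.20 ± 0.32 (adjusted p = 1.61e-06), beside 1.23 ± 0.32 (adjusted p = 0.00721) in control leaves over the day. All 4 isoforms of its component (comp16360_c0), which the list for abscisic acid did not match, were called higher, with log2 changes of 2.42 to 3.20.

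Subunits of the nuclear factor Y complex, which binds CCAAT boxes, went in different directions: the A-9 subunit (comp23870_c0_seq2) rose by 2.81 ± 0.39 (adjusted p = 2.76e-05) and the B-3 subunit (comp16091_c0_seq1) fell from 99.7 to 19.5 RPKM, by 2.26 ± 0.22 (adjusted p = 1.28e-06). In control leaves at 24 h the B-3 subunit (comp16091_c0_seq1) was at a mean of 93.6 RPKM and the A-9 subunit (comp23870_c0_seq2) at 37.1, so that the A-9 subunit did not pass between salt and control leaves at 24 h (0.91, adjusted p = 0.0633). A porphobilinogen transcript of the chloroplast (comp17083_c0_seq1), by its description an enzyme early in chlorophyll synthesis, fell from 164.9 to 43.5 RPKM, by 1.89 ± 0.24 (adjusted p = 1.27e-05). A 14-3-3 protein (comp18299_c0_seq1), which binds phosphorylated proteins, fell from 46.8 to 6.11 RPKM, by 2.65 ± 0.33 (adjusted p = 1.23e-05).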
